A study of Caenorhabditis elegans with 2 samples.

Results

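The arm peaks of chromosomes II to V were the 296 peaks of a 1005-peak ATFS-1 list whose summit lay outside the central segment of its chromosome. The central segments were II 4.88 to 12.02 Mb, III 3.72 to 10.34 Mb, IV 3.9 to 12.97 Mb and V 5.9 to 16.55 Mb, and start plus summit offset placed each peak. Of the 296 members, 159 lay in left arms and 137 in right arms. The same chromosomes held 356 central peaks, and chromosomes I and X held the other 353. The rule used position alone, so tags, folds, lengths and names are measures it did not use. These values and the coordinates are the authors' own, and no source used here names their genome build.

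The list compared 2 libraries from wild-type Caenorhabditis elegans, a nematode worm, both raised from eggs under spg-7(RNAi), which silences the gene of a mitochondrial protease, and harvested as L4 larvae after about 48 h. One library came from whole-worm chromatin precipitated with an antibody against ATFS-1, and its control came from the same kind of lysate without antibody. No library from worms without spg-7(RNAi) was analysed here, so the list shows enrichment under this stress and not a response to it. Each condition had 1 library, no peak has a replicate check, and no test between arms and centres was made. The file header names a different project folder for each library, so project and antibody cannot be told apart. In whole-worm chromatin, binding in more cells and more binding per cell cannot be told apart either.

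ATFS-1 is a bZIP transcription factor that is normally imported into mitochondria and degraded there. When import falters it reaches the nucleus and switches on the mitochondrial unfolded protein response (UPRmt), a program of chaperones, proteases and metabolic genes. The autosomes of C. elegans have a centre with little recombination, where conserved and essential genes are common, and arms with more recombination, more repeats, heterochromatin held at the nuclear lamina, and large young gene families such as chemoreceptors and F-box proteins.

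Peaks per base and the share of genes at a peak both had overlapping intervals in arms and centres. Left arms held 8.64 peaks per Mb (exact Poisson 95% interval 7.35 to 10.1), against 10.6 peaks per Mb in the centres (9.56 to 11.8). Without chromosome II the values were 10.2 in left arms and 10.5 in centres, and without chromosome IV they were 7.38 and 11.0. Right arms held at most 9.04 peaks per Mb (7.59 to 10.7), because their length was taken only to the last peak. In all, arms held 45.4% of the peaks of these 4 chromosomes (exact binomial 95% interval 41.5 to 49.3). When genes were placed by their order in the RefSeq gene table, 284 of 6263 protein-coding genes in arms were named at a peak, 4.53% (4.03 to 5.08), against 318 of 7704 in centres, 4.13% (3.69 to 4.60). These intervals cover counting error only. Both shares leave out genes next to a boundary, which had no peak, and name matching was more complete for arm peaks, 91.7% of names against 87.7% for central peaks.

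Single arms ranged from 4.30 to 14.6 peaks per Mb, and single centres from 8.45 to 14.8. The left arm of II was the sparsest, with 21 peaks or 4.30 per Mb (2.66 to 6.58), against 11.2 per Mb in the centre of II (8.88 to 13.9), and 1.52% of its 1185 protein-coding genes were named at a peak. The right arm of II was far denser, with 38 peaks or at most 11.9 per Mb (8.44 to 16.4), and 7.22% of its 554 genes were named. The interval of the left arm of II overlapped neither that of the right arm nor that of the centre on either scale.

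Chromosome IV had the opposite order, dense on the left and sparse on the right. Its left arm held 52 peaks or 13.3 per Mb (9.96 to 17.5) and its right arm 25 peaks or at most 5.79 per Mb (3.75 to 8.55), against 9.70 per Mb in its centre (7.78 to 11.95). By genes, 7.77% in the left arm of IV and 3.37% in the right arm were named at a peak, against 4.22% in the centre.

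The arms of III were rich in peaks on both sides, and those of V were poor. On III, 39 left-arm peaks and 50 right-arm peaks gave 10.5 per Mb and at most 14.6 per Mb, against 14.8 per Mb in the centre, and the right arm had the highest share of named genes of any segment, 9.51% (7.17 to 12.3), against 5.95% in the centre (4.80 to 7.28). On V, 47 left-arm and 24 right-arm peaks gave 7.97 per Mb and at most 5.67 per Mb, against 8.45 per Mb in the centre. The shares of named genes on V were close together, 3.13% in the left arm, 3.11% in the right arm and 2.81% in the centre. The plot of peaks and named genes by segment shows the 8 arms beside their centres.

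**Figure D1:**
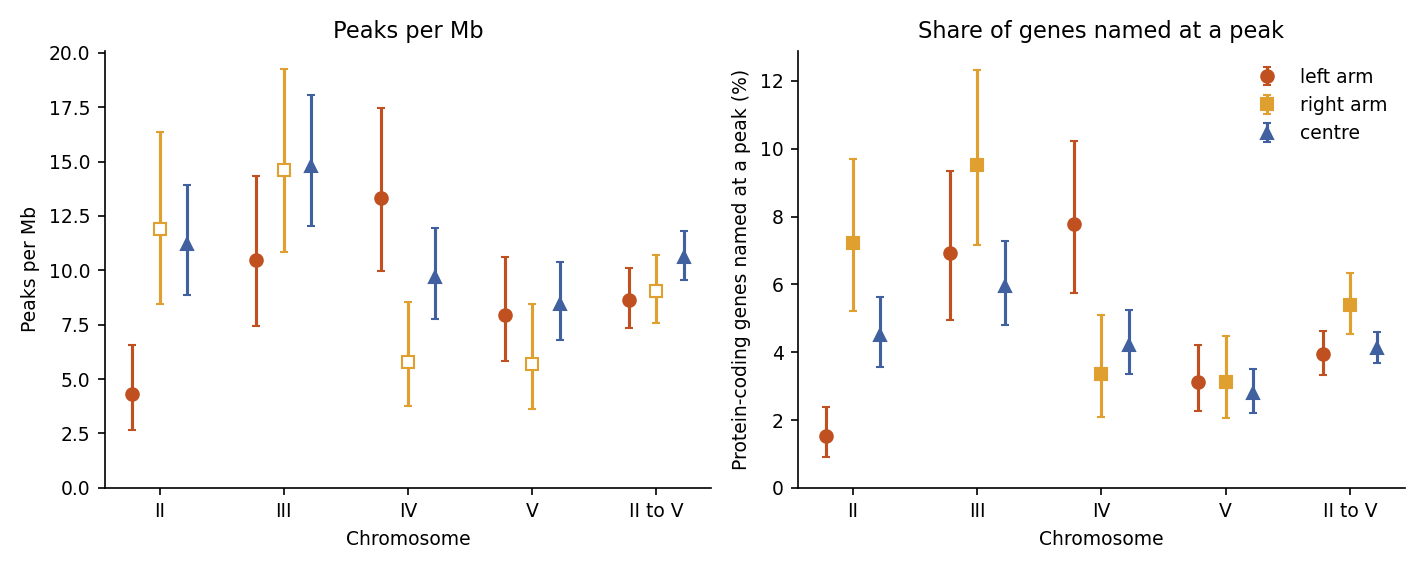
Peaks per Mb (left panel) and percent of protein-coding genes named at a peak (right panel) in the left arm, right arm and centre of each chromosome and pooled; bars are exact 95% Poisson and binomial intervals, and open squares mark right arms measured only to their last peak. The left arm of II stands lowest in both panels, at 4.30 peaks per Mb and 1.52% of genes.

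Within left arms, peaks were fewer towards the chromosome end. With each left arm divided at its mid-length, the outer parts held 64 peaks and the inner parts 95, and the inner part held more on each of the 4 chromosomes (8 outer and 13 inner on II, 14 and 25 on III, 20 and 32 on IV, 22 and 25 on V). Peaks of at least 5-fold were 6 of 64 in the outer parts and 15 of 95 in the inner parts, beside 13.6% over the whole list.

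Spacing differed little between arms and centres at short range. The median distance from a summit to the next was 72.7 kb in arms (quartiles 24.2 and 149) against 58.3 kb in centres (24.5 and 124). Distances under 10 kb made up 14.2% of those in arms and 12.5% in centres. The left arm of II, the sparsest, had a median of 123 kb and a longest stretch of 877 kb without a summit.

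Pooled over the 4 chromosomes, a typical arm peak looked like a typical central one. Fold enrichment, computed by the authors' peak caller as signal with antibody divided by what the control predicts, had a median of 3.265 in arms (quartiles 2.68 and 4.08) against 3.195 in centres (2.73 and 4.03) and 3.26 over all 1005 peaks. Median length was 1602 bp in arms and 1571 bp in centres. Median tag number, the count of antibody reads in the peak, was 321 in arms and 342 in centres. Tags per kb were 204 in both. These pooled differences in medians are small beside the quartile ranges. Single chromosomes differed more, and in both directions. On II arm peaks were shorter (median 1430 bp against 1810 bp in the centre) and had fewer tags (301 against 385.5). On III they were longer (1712 bp against 1566.5 bp), with more tags (346 against 330.5) and a higher fold (3.39 against 3.145).

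Left and right arms were also alike in these measures. The median fold was 3.32 in left arms and 3.20 in right arms, the median length 1528 bp and 1655 bp, and the median tag number 319 and 338. By single arms the median fold ran from 2.765 in the right arm of V to 3.47 in the left arm of V, so the arms of V held both ends of the range. The quotient of tags per kb over fold, a rough gauge of the control level behind a peak, had a median of 62.5 in arms and 63.6 in centres. It is not a control density, because fold is taken at the summit and tags over the whole region.

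**Figure D2:**
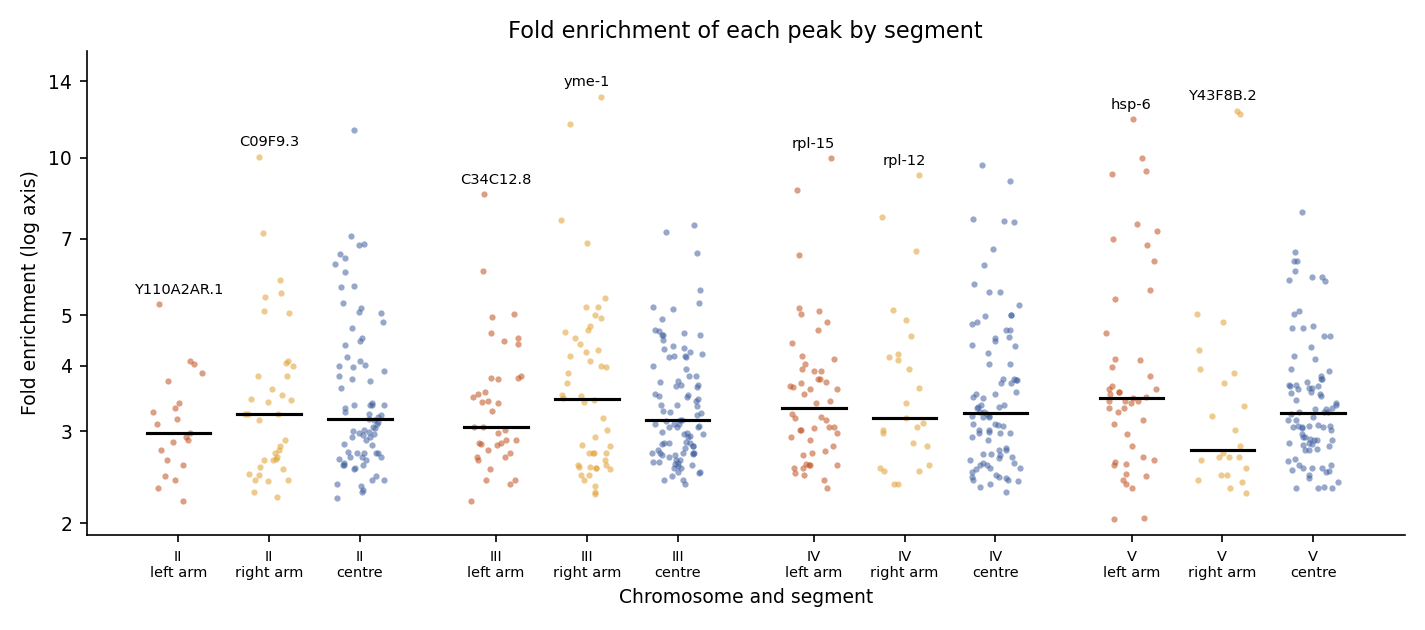
Fold enrichment (log axis) of each peak by chromosome and segment; each point is 1 peak, black bars are medians, and the highest peak of each arm is named. Medians lie between 2.765 and 3.47 in all 8 arms, while the highest peaks differ, from 5.25-fold in the left arm of II to 13.08-fold in the right arm of III.

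In the upper tail of fold enrichment, arms held more of the strongest peaks than centres. Of 296 arm peaks, 43 reached 5-fold, 14.5% (exact binomial 95% interval 10.7 to 19.1), against 12.64% of central peaks (9.37 to 16.5) and a background of 13.6% over the whole list. At 7-fold or more there were 19 arm peaks, 6.42% (3.91 to 9.84), against 10 central peaks, 2.81% (1.36 to 5.11), with a background of 4.78%. At 10-fold or more there were 7 arm peaks and 1 central peak. The 5 highest folds on these 4 chromosomes all lay in arms, as did 15 of the 20 highest, but 25 of the 50 highest.

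This excess rested on chromosome V and on peaks near the boundaries. The arms of V held 9 peaks of at least 7-fold among 71, against 1 among 90 in its centre. Without chromosome V the counts were 10 in arms, which then held 45.8% of the peaks, and 9 in centres. With each boundary moved 0.5 Mb outward, the counts of such peaks were 11 in arms and 18 in centres. Arms then held 37.7% of the peaks and centres 62.3%, so the higher central count went with more central peaks. The excess in arms was lost at that setting. With each boundary moved 0.5 Mb inward the counts were 21 in arms, with 53.1% of the peaks, and 8 in centres. Fold did not follow distance from the nearest boundary in a graded way (Spearman's rho -0.02 over 296 arm peaks, a description across peaks of 1 library pair).

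**Figure D3:**
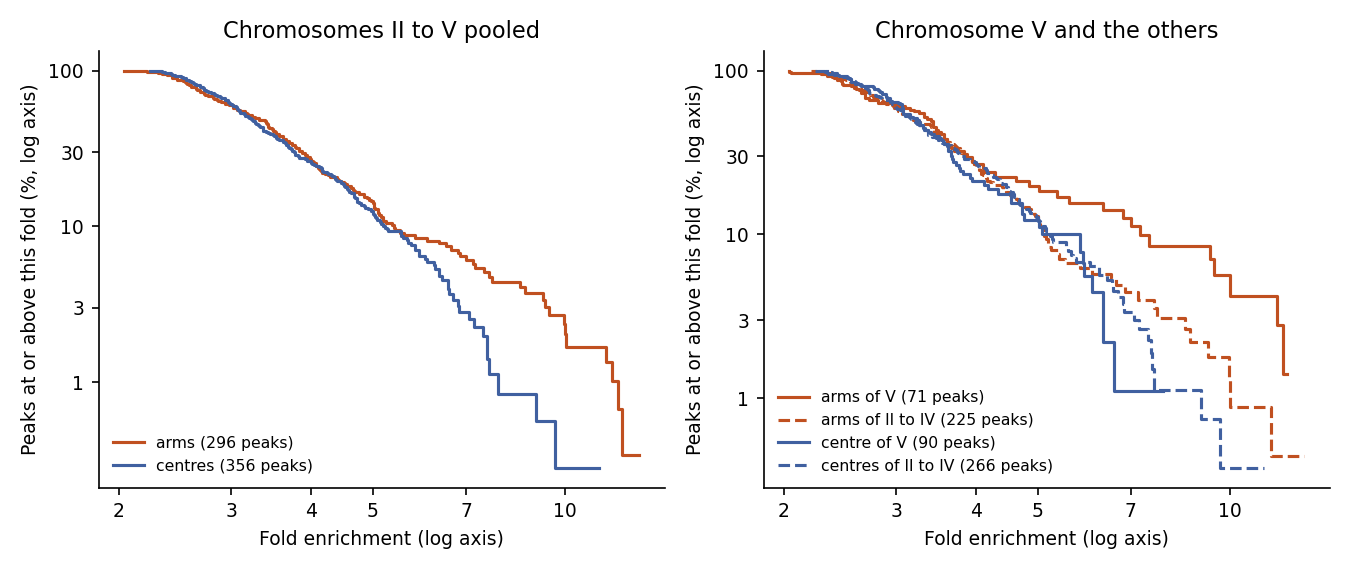
Percent of peaks at or above each fold enrichment (both axes logarithmic) for arms and centres of chromosomes II to V (left panel) and with chromosome V drawn apart from II to IV (right panel). The curves run together up to about 5-fold, with 14.5% of arm and 12.64% of central peaks, and separate at 7-fold, where the arms of V hold 9 of 71 peaks.

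**Figure D4:**
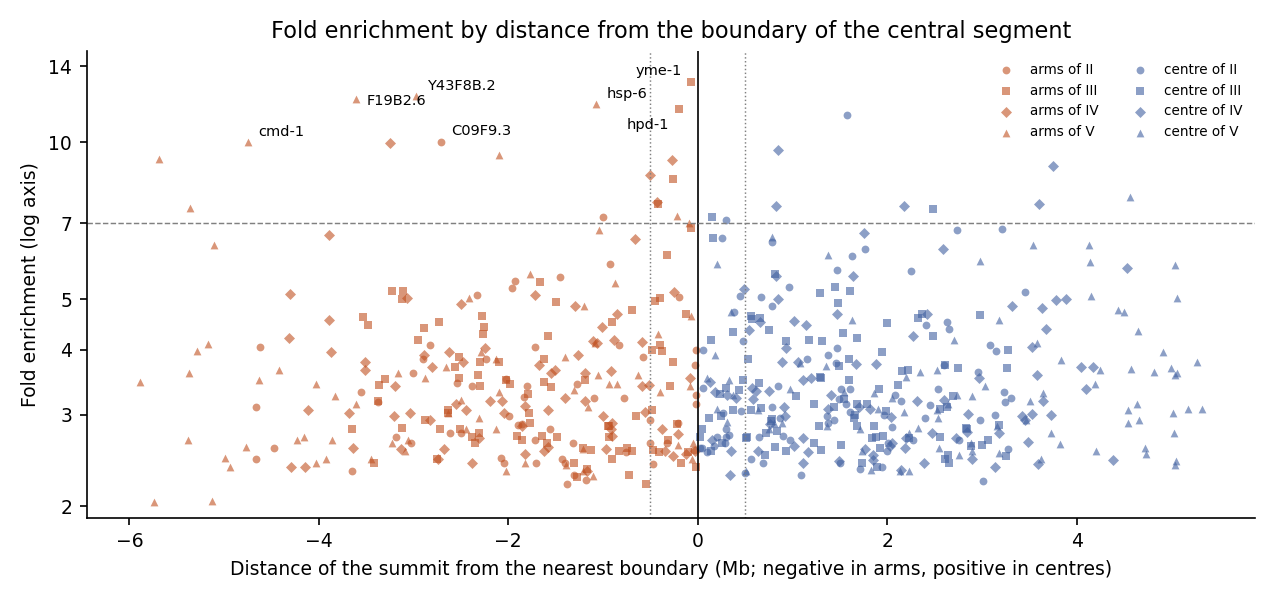
Fold enrichment (log axis) of each peak against the distance of its summit from the nearest boundary of the central segment, negative in arms and positive in centres; marker shapes are chromosomes, dotted lines mark 0.5 Mb on each side, the dashed line marks 7-fold, and the 7 arm peaks at 10-fold or more are named. Of the named arm peaks yme-1 and hpd-1 lie within 0.5 Mb of a boundary, and the other 5 lie 1.07 to 4.75 Mb away.

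Peaks just inside and just outside the boundaries show how close the division runs. On the right of III the nearest arm peak, M03C11.3, lay 67.4 kb outside the boundary at 6.86-fold, and the nearest central peak, unc-69, lay 21.1 kb inside at 2.72-fold. On the right of II the arm peak tpi-1 (20.2 kb outside, 4-fold) faced the central peak ash-2 (41.4 kb inside, 2.59-fold), and on the left of II F11G11.5 (21.9 kb, 3.27-fold) faced sgt-1 with snpc-1 (24.5 kb, 2.59-fold). On the left of III tag-125 (14.8 kb, 2.38-fold) faced brc-1 (143 kb, 4.17-fold). The right boundary of IV fell in a gap, with exos-4.1 and dli-1 129 kb outside at 2.52-fold and dpm-2 and rps-23 579 kb inside at 3.21-fold. The left boundary of IV lay between F37C4.5 (28 kb, 2.55-fold) and hlh-30 (128 kb, 3.47-fold). On V, F26F12.3 (57.3 kb outside on the left, 2.46-fold) faced an unnamed central peak (101 kb, 3.53-fold), and cpl-1 (45.4 kb outside on the right, 2.64-fold) faced W08G11.3 (180 kb, 3.91-fold).

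The members are described below by role, first those of mitochondrial stress and metabolism. yme-1, which encodes an AAA protease of the inner mitochondrial membrane, had the highest fold of the whole list, 13.08, with 728 tags over 1590 bp (right arm of III, 10415011 to 10416600, false discovery rate 4%). At 458 tags per kb it was also the second most tag-dense arm peak. hsp-6, which encodes the HSP70 of mitochondria and serves as a UPRmt reporter, was the highest peak of the left arm of V, with a fold of 11.85 and 2186 tags over 4940 bp (4823219 to 4828158, false discovery rate 0%). hsp-60, the mitochondrial chaperonin, held the most tags of any arm peak, 4741 over 6399 bp (left arm of III, 1615912 to 1622310), and the most per kb, 741, yet its fold was 3.79. Its quotient of tags per kb over fold, 195, was the highest of the whole list, against an arm median of 62.5. ppgn-1, a paraplegin-like protease gene, had a 3.61-fold peak of 326 tags in the left arm of IV. All 4 folds lay above the arm median of 3.265, while those of hsp-60 and ppgn-1 lay below the upper quartile of 4.08. Of 9 listed genes of this group matched and placed in arms 3 were at a peak, against 2 of 6 in centres, and yme-1 had no match in the gene table.

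Both the yme-1 and the hsp-6 peak stood in a run of neighbouring peaks. The yme-1 peak lay between M03C11.3 (6.86-fold, 591 tags) and atx-2 (4.68-fold, 510 tags), 3 peaks within 55.5 kb. The hsp-6 peak was 1 of 4 within 44.1 kb, beside C37H5.6 (4.12-fold), C37H5.3 (3.57-fold) and C37H5.13 (6.8-fold). The gene table gives C37H5.6 the symbol adss-1 and C37H5.3 the symbol abhd-5.2. Runs of 3 or more peaks with summits under 50 kb apart held 115 of the 296 arm peaks in 33 runs, 38.9%, against 144 of 356 central peaks in 36 runs, 40.4%.

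Among metabolic enzymes, hpd-1 and glna-1 had arm peaks over 10-fold, and the listed genes of sugar metabolism had lower ones. hpd-1, an enzyme of tyrosine breakdown, had a fold of 11.61 with 1482 tags (right arm of III, 10533024 to 10538186, false discovery rate 3.85%). C09F9.3, glna-1 in the gene table and a glutaminase gene, was the highest of the right arm of II at 10.03-fold with 668 tags (14728499 to 14730426, false discovery rate 10.2%). T05D4.1, the aldolase gene aldo-1, reached 5.19-fold with 1327 tags in the right arm of III (13562619 to 13566841, false discovery rate 2.78%). The other glycolytic and gluconeogenic members were tpi-1, triosephosphate isomerase (4-fold, right arm of II), and W05G11.6, pck-1, phosphoenolpyruvate carboxykinase (2.82-fold, left arm of III). Of 4 listed genes of this group placed in arms, 3 were named at a peak, against 3 of 7 in centres.

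Listed genes of oxidative phosphorylation and of the mitochondrial ribosome had arm peaks of 2.52-fold to 3.87-fold. The 4 arm peaks of the first list were C01F1.2, sco-1, which helps to assemble cytochrome c oxidase (3.87-fold, left arm of II), cco-2 (3.71-fold, right arm of III), the 3-name peak that includes Y71H2AM.5, cox-6B (2.72-fold, left arm of III), and nuo-3, a complex I subunit (2.52-fold, right arm of IV). Without cco-2, which had no match, 3 of 13 listed genes in arms were at a peak, against 3 of 15 in centres. Complex I genes outside the list were also at arm peaks. By symbol in the gene table they included ndua-8 (Y54F10AM.5, 3.49-fold, left arm of III), ndub-8 (Y51H1A.3, 2.88-fold, right arm of II) and nduc-2 (Y71H2AM.4, at the cox-6B peak). Nor does the list hold ant-1.1, which shared with T27E9.2 a 5-fold peak of 952 tags (right arm of III). Mitochondrial ribosomal proteins gave Y48E1B.5, mrpl-37 (2.81-fold), and Y48C3A.10, mrpl-20 (2.65-fold), both in the right arm of II, 2 of 21 listed genes in arms against 0 of 34 in centres. Outside the list, tufm-1, the mitochondrial elongation factor Tu, had a 4.51-fold arm peak of 686 tags (left arm of III), and F29C12.4, the elongation factor gene gfm-1, one of 3.23-fold (right arm of II). No listed import gene (0 of 3) and no tricarboxylic acid cycle gene (0 of 4) in arms was at a peak, against 3 of 7 and 5 of 13 in centres. The cycle gene mdh-1, at a further central peak, had no match in the gene table. With so few listed genes in arms these counts of 0 carry little weight.

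Cytosolic ribosomal protein genes held the highest peak of both arms of IV. rpl-15, a large-subunit ribosomal protein gene, shared with K11H12.8 the highest peak of the left arm of IV, at 9.96-fold with 2152 tags over 6293 bp (652885 to 659177, false discovery rate 0%). rpl-12 was the highest of the right arm of IV, at 9.26-fold with 1420 tags (13238768 to 13242238, false discovery rate 5.56%). The other ribosomal members were at 2.47-fold to 4.03-fold, with rps-28 at 4.03-fold, rps-24 at 3.78-fold, ubl-1 at 2.98-fold and rpl-29 at 2.81-fold. Of 17 listed ribosomal protein genes placed in arms 5 were at a peak, against 6 of 37 in centres. ubl-1 and rpl-2 (2.47-fold), at 2 further arm peaks, had no match in the gene table. Translation factors and aminoacyl-tRNA synthetases had 1 of 7 in arms, ife-3, a cap-binding protein gene (3.47-fold), against 4 of 33 in centres. Central peaks named 9 members of this list, but grs-1, eft-3, eft-1, srs-2 and irs-1 had no match in the gene table.

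Cytosolic chaperones were named at 4 arm peaks. hsp-1, the constitutive cytosolic HSP70, had a 5.11-fold peak of 1792 tags, the most in the right arm of IV (17277258 to 17282392, false discovery rate 0%). cct-7, a chaperonin subunit (3.43-fold), dnj-19, a J-domain co-chaperone (3.32-fold), and R09E12.3, the HSP90 co-chaperone gene sti-1 (2.05-fold), all lay in the left arm of V. These were 4 of 6 listed genes in arms, against 2 of 9 in centres. The single listed endoplasmic reticulum stress gene in arms, Y54G2A.23 or manf-1, had a 2.58-fold peak. Protein degradation and acidification gave ubc-8 (3.61-fold), rpt-6 at a peak shared with the histone gene his-72 (3.5-fold), asp-1 (3.2-fold), vha-11 with vha-3 (3.06-fold), ubq-2 (3.02-fold) and cpl-1, cathepsin L (2.64-fold with 803 tags). vha-11, a proton pump subunit gene, also had a second peak of its own at 2.6-fold. Proteasome and ubiquitin genes had 3 of 13 in arms against 5 of 24 in centres, proton pump and lysosomal protease genes 4 of 14 against 4 of 22, and histone genes 1 of 15 against 8 of 52.

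Transcription factor genes in arms included 4 of the bZIP class and a group of nuclear hormone receptors. The bZIP genes were zip-3 (5.41-fold with 1320 tags, the most in the right arm of II, 13951600 to 13956161), zip-2, a factor of the infection response (4.4-fold with 1068 tags, left arm of III), Y75B8A.29 or zip-12 (3.44-fold, right arm of III) and W08E12.1 or zip-11 (3.4-fold, left arm of IV). They were 4 of 7 listed bZIP genes in arms, against 4 of 13 in centres.

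Nuclear hormone receptors, a family of ligand-regulated factors greatly expanded in nematodes, were named at 9 arm peaks, all on V. Of these, 7 lay in the left arm, where nhr-132 stood highest at 7.48-fold with 675 tags (533191 to 535162), followed by nhr-57 (5.59-fold), nhr-90 (3.98-fold), nhr-58 (3.61-fold), nhr-47 at a peak shared with dnj-19 (3.32-fold), nhr-226 (3.15-fold) and nhr-210 (2.68-fold). In the right arm nhr-65 (3.95-fold, shared with cyp-33D3) and nhr-79 (3.7-fold) were named. nhr-210, nhr-58 and nhr-132 formed a run of 3 peaks within 16.7 kb. Of 77 listed receptor genes in the left arm of V, 7 were at a peak, 9.09%, and of 15 in the right arm 2, against 1 of 72 in the centre of V. Over all protein-coding genes the share was 3.13% in the left arm of V and 3.11% in the right arm, against 2.81% in the centre. Over all 4 chromosomes the share was 7.44% in arms (9 of 121) against 4.04% in centres (4 of 99), while 0 of 29 receptor genes in the arms of II, III and IV were at a peak. Centres other than that of V had 2 of 21 receptor genes at a peak on IV, 9.52%, 1 of 3 on II and 0 of 3 on III. The share in the left arm of V was thus matched in the centre of IV. The receptor gene nhr-1, at a further central peak on II, had no match in the gene table.

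Detoxification genes gave 4 arm peaks, also all on V. cyp-33C8, a cytochrome P450 gene, reached 9.44-fold with 1196 tags in the left arm (3800347 to 3804612). Its false discovery rate, 10.81%, was the highest of any arm peak, although the caller's p-value score, 1366, was far above the arm median of 142. pgp-9, a P-glycoprotein transporter gene, had 4.85-fold and cyp-33D3 3.95-fold in the right arm, and ugt-61, a glucuronosyltransferase gene, 3.1-fold in the left. They were 4 of 86 listed genes in arms, 4.65%, against 6 of 88 in centres, 6.82%, and the arm share is close to the 4.53% of all arm genes. The listed gene prdx-1, at a further central peak on II, had no match in the gene table.

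The listed chemoreceptor and F-box genes were almost without peaks. Of 672 listed chemoreceptor genes placed in arms 3 were at a peak, 0.446%, against 1 of 493 in centres, 0.203%. Those in arms were srh-76 (4.63-fold), srt-30 (3.32-fold) and sre-13 (2.76-fold). Central peaks named 2 members, srh-48 (4.51-fold) and srh-278 (6.08-fold), of which 1 is counted. Of 339 listed genes of the F-box, MATH and BTB families in arms 1 was at a peak, fbxa-108 at 2.29-fold, against 0 of 62 in centres. Outside these counts, bath-43 was named at a 2.98-fold peak in the centre of III but had no match in the gene table. The lists do not hold srr-2, a serpentine receptor gene at the nhr-79 peak, nor fbox-72, which had no match in the gene table and shared with gei-7 a 4.1-fold peak of 1686 tags (left arm of V). These families make up 1011 of the 6263 arm genes, and with them left out, a choice made after the values were seen, 5.33% of arm genes (4.74 to 5.97) and 4.43% of central genes (3.97 to 4.94) were named at a peak. Collagen genes, which encode the cuticle, had 3 of 36 members in arms at low-fold peaks (2.58-fold at col-103, 2.41-fold at col-85, 2.21-fold at col-71), against 1 of 78 in centres. Listed immune regulators, lysozymes and C-type lectins had 1 of 141 in arms, zip-2, against 2 of 77 in centres. The galectin genes lec-6 (2.83-fold, left arm of III) and lec-1 (2.25-fold, right arm of II), which are not on that list, were at arm peaks.

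**Figure D5:**
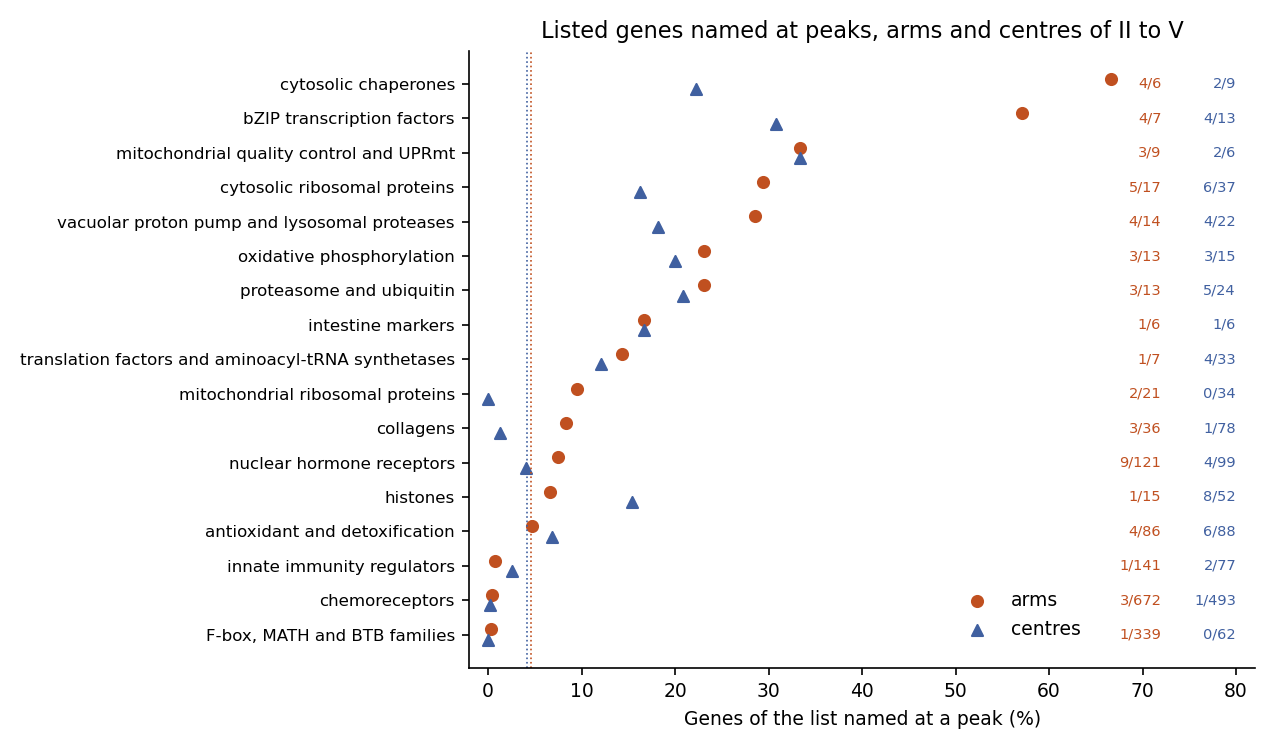
Percent of listed genes named at a peak in arms (circles) and in centres (triangles), for lists with at least 5 genes in each; the counts at right give genes at a peak over genes of the list, and dotted lines mark the shares over all protein-coding genes, 4.53% in arms and 4.13% in centres. Cytosolic chaperones (4 of 6) and bZIP factors (4 of 7) have the highest shares in arms, and chemoreceptors (3 of 672) and the F-box group (1 of 339) the lowest. Names at peaks without a match in the gene table are not counted.

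Markers of tissues that the lysate could hold were at 2 arm peaks. unc-60, a muscle actin regulator (3.66-fold, left arm of V), and asp-1, an intestinal protease gene (3.2-fold, right arm of V), were 1 of 2 muscle markers and 1 of 6 intestine markers in arms, beside 4.53% of all arm genes. None of 4 neuron and 3 germline markers in arms was at a peak, and no listed hypodermis marker lay in arms. A list of binding sites gives no check of which tissues the lysate held.

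Several of the highest arm peaks carried only locus names in the peak list. Y43F8B.2 (12.28-fold, 1077 tags, 19520680 to 19523488, false discovery rate 4.76%) and F19B2.6 (12.12-fold, 1259 tags, 20157666 to 20162023, false discovery rate 3.23%) were the highest of the right arm of V, and the next there, Y39B6A.43, was at 5.02-fold. C34C12.8 led the left arm of III (8.5-fold, 748 tags), followed by cri-3 (6.08-fold) and Y53G8AR.2, phf-15 (5.02-fold). Y62E10A.13 (7.69-fold) and T06A10.4, lsy-13 (6.63-fold), followed rpl-12 in the right arm of IV. K01G5.9, tasp-1 in the gene table, with K01G5.10 (7.61-fold) came after hpd-1 in the right arm of III. In the left arm of IV an unnamed peak of 679 tags (8.67-fold, 3394912 to 3397241) and Y67D8A.1 (6.52-fold) followed rpl-15.

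The left arm of V had the most strong peaks and the left arm of II the fewest. In the left arm of V, cmd-1, the calmodulin gene (10-fold, 986 tags, 1149020 to 1152492), came second to hsp-6, and a peak labelled DC-2.5 had 9.31-fold, 1372 tags and a false discovery rate of 0%. The peak of F25B4.4 and F25B4.6 (7.23-fold), which the gene table calls hmgs-1 for F25B4.6, an enzyme of the mevalonate pathway, and that of zk250.4 (7-fold) complete the 7 peaks of this arm at 7-fold or more, beside cyp-33C8 and nhr-132. Peaks of 5-fold or more numbered 11 of 47 there, 23.4%. In the left arm of II only Y110A2AR.1 passed 5-fold (5.25-fold, 1186 tags, 2919374 to 2924568), followed by K07D4.2 (4.08-fold) and pqn-85 (4.04-fold). In the right arm of II max-2, a p21-activated kinase gene (7.19-fold), and F58G1.7 (5.83-fold) followed glna-1. Other arms were led by length or tags at Y111B2A.12 (right arm of III, 1552 tags over 5976 bp, 4.65-fold) and Y41E3.16 (right arm of IV, 6017 bp, 3.18-fold).

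The false discovery rate given by the caller was 5% or less at 9 arm peaks, 3.04%, against 1.97% of central peaks and a background of 3.18%. All 9 have been named: yme-1, hpd-1 and aldo-1 on III, rpl-15 and hsp-1 on IV, and hsp-6, DC-2.5, Y43F8B.2 and F19B2.6 on V. None lay on II, and each of the 9 was at least 5-fold. The median rate was 7.55% in arms and 7.54% in centres, and the rate of hsp-60 was blank in the list. The rate did not fall steadily with peak strength. The highest arm rates, at cyp-33C8 (10.81%), cri-3 (10.64%) and glna-1 (10.2%), went with p-value scores of 1366, 1150.5 and 1124, against an arm median of 142.

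Arm peaks more often carried only a locus name, the clone-based identifier of a gene. Of 296 arm peaks 132 did, 44.6% (38.8 to 50.5), against 125 of 356 central peaks, 35.1% (30.2 to 40.3). The share was higher in arms on II (49.2% against 32.5%), III (49.4% against 31.6%) and IV (44.2% against 34.1%), and lower on V (35.2% against 42.2%). A locus name in the list does not mean that the gene lacks a symbol: 63 of the 150 locus names at arm peaks have one in the gene table, and 54 of 140 at central peaks. Arm peaks with locus names only had a median fold of 3.315, and 16.7% reached 5-fold, against 3.2 and 11.4% for arm peaks with a symbol.

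The names followed gene order closely. Of 315 names at arm peaks 289 matched a gene of the same chromosome, 91.7%, and the 286 that were protein-coding all stood in the order of the gene table, as did all 320 at central peaks. Among arm peaks with 2 or more matched names, the genes were next to each other in 26 of 26, against 26 of 27 in centres. Peaks with 2 or more names made up 10.8% in arms and 9.55% in centres, and peaks with none 4.73% and 6.46%.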

How the data were processed

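Per the file headers, MACS 1.4.2 called the deposited list on the antibody library against the no-antibody control, with 1 tag kept per position, a p cutoff of 1e-05 and an effective genome size of 90000000 bp. Per the submitters' processing notes, the tools used were BWA 0.7.5, Picard and MACS 1.4. The build of the genome and the way gene names were added are not given in the sources used here. Duplicate removal left 10992796 tags of the antibody library and 10583049 of its control, per the file headers. The deposited columns used were the tag count, the fold (a ratio), a score (its heading lost, read as −10 times log10 of the p-value, lowest 50.06), and the false discovery rate in percent; all are the authors' own values for each peak.

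Peaks were placed in segments, and medians, quartiles and exact 95% binomial and Poisson intervals, which cover counting error only, were computed with Python 3.11.15, pandas 2.3.3 and scipy 1.17.1. The functions were tested on simulated data. Names were matched within a chromosome to the RefSeq table of WBcel235, from which only names, biotype and gene order were used. A gene was placed in an arm or centre by its order between genes named at peaks there, which left 397 protein-coding genes near boundaries unplaced. No sequence was used here. Genes were named by rule: the 3 highest folds, most tags and greatest length in each arm, the peaks nearest each boundary, list members (the 6 highest of longer lists), and false discovery rates of 5% or less. The other nuclear hormone receptors, rpl-2, runs of neighbouring peaks, peaks at genes outside the lists and further peaks given for an arm were chosen after their values were seen. The segments and the 27 gene lists were chosen with earlier results of these data known. Alternatives were other boundaries, midpoints, stricter peak sets, other fold thresholds and each chromosome left out.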

Additional observations from a re-analysis of the deposited data

How the results depend on the processing

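No paired analysis was possible because antibody and control have 1 library apiece, and leaving out a replicate was not possible either. Of the alternative values, 76 stayed within the 95% interval (for counts, within 1.5 times) of the arm value reported and 28 did not. The stricter peak sets moved medians and densities by construction. Keeping peaks of the median fold or more, arms had a median fold of 4.08, length of 1852 bp, 473 tags, a control gauge of 54.4, 28.9% of peaks at 5-fold and 4.57 left-arm peaks per Mb; here the median fold was lower in arms than in centres (4.15). Keeping peaks of the median score or more, these were 3.98, 2300.0 bp, 519, 58.6, 27.7% and 4.40. Keeping false discovery rates up to 5%, they were 11.61, 4358 bp, 1372, 35, 100% and 0.163, arms held 56.2% of peaks and 33.3% of the 9 arm peaks had locus names only. Boundaries 0.5 Mb outward gave arms 37.7% of peaks, and inward 53.1%. Thresholds of 4-fold and 7-fold gave 27% and 6.42% of arm peaks. Without chromosome II left arms held 10.2 peaks per Mb, against 10.5 in centres. Without IV left arms held 7.38, against 11.0 in centres, so the size of the gap depended on the chromosomes kept. The count of arm peaks at 7-fold or more was 11 of 246 with boundaries outward and 10 of 225 without V. Without the chemoreceptor and F-box families, an alternative chosen after seeing the data as were those of the 7-fold count and of spacing, the share of arm genes at a peak was 5.33%. Across settings, left-arm density was below that of centres in 11 of 11, locus names only were more frequent in arms in 10 of 11, and the share at 5-fold was higher in arms in 10 of 11, turning lower with boundaries outward (12.2% against 14.3%). Moving the point from summit to midpoint changed no member count.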
